A study of Homo sapiens with 12 samples.

Results

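The glutathione S-transferases described here were 10 human genes given by symbol and matched to the Ensembl identifiers of the count table: the cytosolic enzymes GSTA4, GSTM2, GSTM3, GSTM4, GSTP1 and GSTO1, the organellar enzyme GSTK1, and the microsomal enzymes MGST1, MGST2 and MGST3. All 10 were found among the 60675 gene identifiers of the table, of which 29861 had a count in at least 1 library. After the filter on low counts 15374 genes were tested, 8 of the 10 transferases among them; GSTM2 and GSTM3 did not pass it. The cells were HT29, an established human colorectal adenocarcinoma line, and every group is therefore a model of 1 line only. They were exposed for 24 h to a water extract of Aconitum carmichaeli Debeaux (ACD), a root used in herbal medicine, at a low dose of 20 µg/mL, a medium dose of 100 µg/mL or a high dose of 500 µg/mL. The sample titles and treatment labels and the study's methods name this plant; the longer treatment text of the labels names dried Poria cocos as the herb supplied, and the titles were followed. The vehicle group received phosphate-buffered saline with 2% DMSO, the same fluid in which the extract stock was dissolved. Each of the 4 groups held 3 libraries. Since the labels do not say that these came from separate cultures, the p-values measure the spread between these libraries, which may be technical.

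Glutathione S-transferases join reduced glutathione to electrophilic compounds, and so make drugs, plant toxins and products of lipid oxidation more soluble and ready for export from the cell. The cytosolic enzymes fall into classes (alpha, mu, pi, omega and others), the kappa enzyme sits in mitochondria and peroxisomes, and the microsomal enzymes are membrane proteins of a separate family, some of which also reduce lipid peroxides or make leukotriene C. Many of these genes are textbook targets of NRF2, a transcription factor that binds antioxidant response elements, and some respond to the aryl hydrocarbon receptor (AhR), which binds xenobiotic response elements. In the colon the pi class is known as the main transferase of the epithelium and of its tumours.

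The promoters of 3 of these genes are shown because they differ in which of the 2 elements their bases could form, and that of GCLM, the regulatory subunit of the enzyme that starts glutathione synthesis, is shown beside them as a gene of the same pathway whose mRNA rose (it was chosen after its values were seen). Each line gives the 250 bases before the transcription start, 5′ to 3′ on the gene's strand, from RefSeq on GRCh38.p14. The windows are chr11:67583562-67583811 (plus strand) for GSTP1, chr10:104254642-104254891 (plus strand) for GSTO1, chr1:109655849-109656098 (plus strand) for GSTM4 and chr1:93909431-93909680 (minus strand) for GCLM. Capitals mark TGACNNNGC, the core of an antioxidant response element, and GCGTG, the core of a xenobiotic response element, each searched on both strands, so that a match on the opposite strand appears as its reverse complement.
GSTP1: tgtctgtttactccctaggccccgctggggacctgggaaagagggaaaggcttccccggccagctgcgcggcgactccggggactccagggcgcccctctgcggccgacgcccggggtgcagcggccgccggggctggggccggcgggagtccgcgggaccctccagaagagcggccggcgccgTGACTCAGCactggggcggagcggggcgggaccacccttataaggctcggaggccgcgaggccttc
GSTO1: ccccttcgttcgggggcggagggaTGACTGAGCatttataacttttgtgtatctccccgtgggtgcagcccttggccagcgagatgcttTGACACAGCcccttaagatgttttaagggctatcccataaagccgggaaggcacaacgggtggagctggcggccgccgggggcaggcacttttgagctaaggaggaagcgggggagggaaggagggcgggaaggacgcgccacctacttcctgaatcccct
GSTM4: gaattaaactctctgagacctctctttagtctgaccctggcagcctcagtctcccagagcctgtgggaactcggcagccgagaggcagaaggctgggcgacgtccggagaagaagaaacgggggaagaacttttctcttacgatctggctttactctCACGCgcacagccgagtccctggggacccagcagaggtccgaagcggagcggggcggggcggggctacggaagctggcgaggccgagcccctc
GCLM: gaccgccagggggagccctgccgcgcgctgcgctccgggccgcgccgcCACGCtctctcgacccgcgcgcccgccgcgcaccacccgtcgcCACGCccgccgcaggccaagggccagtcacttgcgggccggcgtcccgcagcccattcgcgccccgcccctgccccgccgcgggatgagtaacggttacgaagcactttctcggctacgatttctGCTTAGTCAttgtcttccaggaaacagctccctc
In the GSTP1 promoter the match TGACTCAGC began 66 bases before the start, and in that of GSTO1 TGACTGAGC and TGACACAGC began 226 and 161 bases before it. GSTM4 held no TGACNNNGC in this window and 1 GCGTG, on the opposite strand. GCLM held TGACTAAGC and 2 copies of GCGTG, all on the opposite strand. Over windows from 250 bases before to 50 after the start, 9 of the 10 transferases had an entry, MGST2 being the one without. TGACNNNGC was found in 4 of these 9 (GSTA4, GSTO1, GSTP1 and 1 of the 3 MGST1 promoters), and in 13.3% of 35116 promoters of all genes. GCGTG was found in 3 of the 9 (GSTM3, GSTM4 and MGST3) and in 36.5% of all promoters. The transferases were counted by gene and the background by promoter, so that MGST1 had 3 windows in which to match. No transferase promoter held both TGACNNNGC and GCGTG, so a match of one could not overlap a match of the other. A match describes the letters of the window and is not a binding site.

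Summed over genes, the 12 libraries had 15941255 to 33866644 expected counts (median 23833237). All 10 markers of colon epithelium reached 1 CPM in at least 1 of the 12 libraries (CPM, counts scaled to a common library total). Of 13 markers of glia, fibroblasts, leukocytes, endothelium and liver, 3 reached 1 CPM (COL1A1, CD14 and PECAM1). Their list summed to between 5.49 and 8.90 CPM per library, against 10952 to 13136 CPM for the epithelial list, with overlapping ranges in the 4 groups. Most of the epithelial sum was KRT8 and KRT18 (medians 6396 and 3398 CPM over the 12 libraries). EPCAM, KRT20, CDH1, VIL1 and LGALS4 had medians from 169 to 548 CPM. CDX1, CDX2 and CEACAM5 were at 1.21, 6.08 and 6.53 CPM, CDX1 being below CD14 (3.18) and PECAM1 (1.86). High-dose replicate 2, the library with the lowest total, stood apart from the other 2 high-dose libraries, and results that rest on it are given with and without it. In bulk RNA a lower share of cells with a transcript and less of it per cell cannot be told apart.

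In vehicle cells GSTP1, the pi class enzyme, had the highest level of the family. Its CPM divided by the length of its reference mRNA was 736 ± 97.5 CPM per kilobase (SD, n = 3). MGST1, the microsomal enzyme with both transferase and peroxidase activity, was at 181 ± 14.8 and GSTK1, the kappa class enzyme, at 160.01 ± 13.5 CPM per kilobase, and the libraries of these 2 genes overlapped. GSTO1, the omega class enzyme that also reduces dehydroascorbate, followed at 107 ± 14.1 CPM per kilobase, below every GSTK1 library. The order of MGST1, GSTK1 and GSTO1 changed when the longest transcript or the union of exons was taken as the length, whereas GSTP1 stayed first and the remaining 6 genes kept their places under both.

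The remaining genes covered a much wider range. MGST2 was at 33.9 ± 3.71, MGST3 at 23.1 ± 2.62, GSTA4 at 3.89 ± 0.223 and GSTM4 at 1.00 ± 0.0983 CPM per kilobase in vehicle cells, and no libraries of neighbouring genes in this order overlapped. GSTM3 was at 0.0442 CPM per kilobase, from 4 to 5 counts per vehicle library. GSTM2 had no count in any vehicle library. Across all 12 libraries GSTM2 had between 0 and 1 count per library (3 in total) and GSTM3 between 0 and 7 (49 in total), so that a change in either was not detectable at this depth. GSTP1 alone made up between 49.4% and 54.7% of the summed CPM of the 10 genes in each library.

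**Figure D1:**
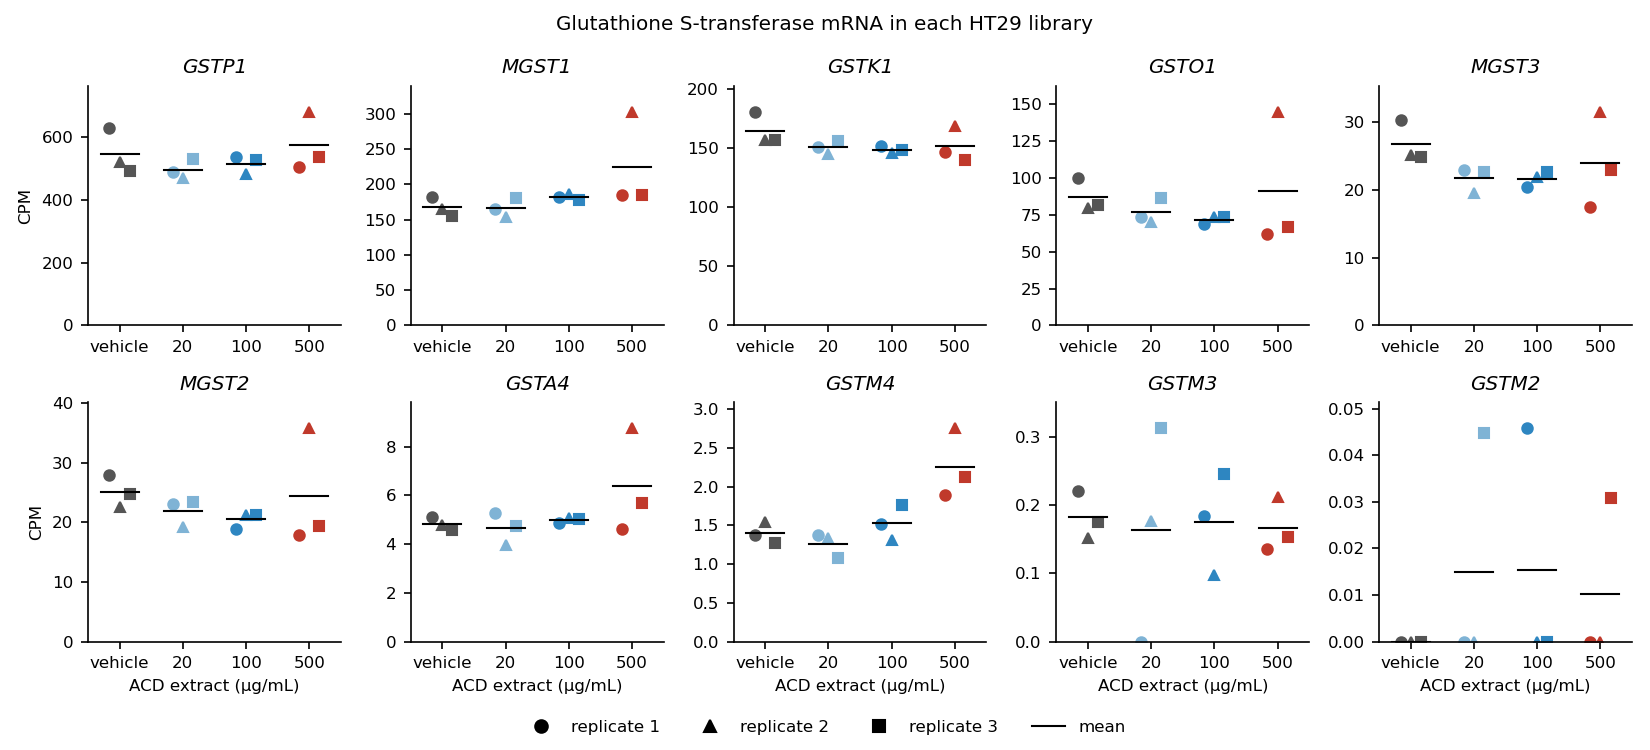
CPM (y axis, from 0, a separate scale for each gene) of the 10 glutathione S-transferases in vehicle cells and at 20, 100 and 500 µg/mL of the ACD extract (x axis), with 1 symbol per library by replicate number and a bar at the mean of 3. High-dose replicate 2 (red triangle) lies above the other 2 high-dose libraries in all 8 genes that were tested.

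At the high dose none of the 8 tested transferases passed the test against vehicle. The test was edgeR's quasi-likelihood test across all genes with Benjamini-Hochberg adjustment, and a gene is called changed where the adjusted p was under 0.05. Of all 15374 genes tested, 5.77% were called in this comparison. At an unadjusted p under 0.05 there were 2 of the 8 (GSTM4 and MGST1), and DESeq2 gave the same numbers, 0 after adjustment and 2 before. The median log2 fold change of the 8 was 0.06, with 5 of them above 0; over all genes the median was 0.01 and 51.0% were above 0.

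GSTM4, of the mu class, had the smallest p of the family against vehicle. The 3 vehicle libraries were at 1.37, 1.54 and 1.27 CPM and the 3 high-dose libraries at 1.89, 2.76 and 2.12 CPM. The low-dose libraries were at 1.37, 1.34 and 1.07 CPM and the medium-dose libraries at 1.51, 1.305 and 1.76 CPM. All high-dose libraries thus lay above all others. They rest on few reads, between 24 and 69 counts per library over the 12. The log2 fold change at the high dose was 0.65 (SE 0.19, 95% interval 0.24 to 1.07, n = 3 and 3) with an adjusted p of 0.0699.

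GSTM4 was also the one transferase called when the high dose was compared with the low dose. The difference itself takes no vehicle value. The vehicle libraries still enter the filter, the scaling and the shared spread of the fit, and so the p-value. In this comparison 2.98% of all genes tested were called. For GSTM4 the log2 difference was 0.80 (SE 0.19, 95% interval 0.39 to 1.22), with an adjusted p of 0.0446 (edgeR). This call was lost under 17 of 24 alternatives, over which the adjusted p ran from 0.0351 to 0.229; without high-dose replicate 2 the difference was 0.66 with an adjusted p of 0.0650, and leaving out any vehicle, medium-dose or low-dose library or high-dose replicate 3 also ended it. GSTM1, GSTM2, GSTM3 and GSTM5, which share much of their sequence with GSTM4, held 1, 3, 49 and 17.9 counts over all libraries, and whether reads were divided among these genes was not tested. With the counts of the mu class genes added up, the difference between the high and the low dose was 0.74 and the adjusted p 0.0473.

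MGST1 showed the second smallest p. Its vehicle libraries were at 182, 165 and 155 CPM and its high-dose libraries at 184, 303 and 185 CPM. The low-dose libraries were at 165, 153 and 180 CPM and the medium-dose libraries at 182, 186 and 178 CPM. Of the high-dose libraries, replicates 1 and 3 lay just above the highest vehicle library, and replicate 2 far above all others. The log2 fold change was 0.42 (SE 0.16, 95% interval 0.07 to 0.77) with an adjusted p of 0.163. GSTM4 and MGST1 were the 2 of 8 transferases whose high-dose libraries all lay above the vehicle libraries, a pattern that 10.6% of all genes tested showed.

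GSTA4, the alpha class enzyme that acts on aldehydes from lipid peroxidation, was at 5.11, 4.78 and 4.57 CPM in vehicle cells and at 4.63, 8.77 and 5.68 CPM at the high dose. The low-dose libraries were at 5.29, 3.98 and 4.74 CPM and the medium-dose libraries at 4.86, 5.06 and 5.03 CPM. The groups overlapped at every dose. Its log2 fold change at the high dose was 0.37 (95% interval −0.05 to 0.79) with an adjusted p of 0.319; without high-dose replicate 2 it was 0.12.

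GSTP1, the most abundant member, was at 627, 520 and 489 CPM in vehicle cells and at 502, 679 and 535 CPM at the high dose. At the low dose it was at 489, 467 and 528 CPM and at the medium dose at 535, 480 and 526 CPM. All groups overlapped, and with 9604 to 17402 counts per library counting error was small beside the spread between libraries. The log2 fold change at the high dose was 0.07, with a 95% interval of −0.20 to 0.34 that corresponds to a ratio between 0.871 and 1.26. At the low and the medium dose it was −0.14 and −0.09.

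GSTO1 varied most between high-dose libraries. Its vehicle libraries were at 100.1, 79.4 and 81.3 CPM and its high-dose libraries at 61.7, 145 and 66.9 CPM. The low-dose libraries were at 73.3, 69.8 and 86.3 CPM and the medium-dose libraries at 68.4, 73.5 and 73.1 CPM. Replicates 1 and 3 at the high dose lay below every vehicle library and replicate 2 lay above all of them. The log2 fold change of 0.06 had a 95% interval from −0.49 to 0.61.

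GSTK1 had the smallest standard error of the 8 at the high dose (0.08 on the log2 scale). It was at 181, 157 and 157 CPM in vehicle cells and at 147, 169 and 140 CPM at the high dose. The low-dose libraries were at 151, 145 and 157 CPM and the medium-dose libraries at 152, 146 and 149 CPM. Every low-dose and medium-dose library lay below the vehicle libraries, the highest of the low-dose ones only narrowly. The log2 fold changes at the low, medium and high dose were −0.13, −0.15 and −0.12, none with an adjusted p under 0.05.

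The other 2 microsomal enzymes lay lower in treated cells than in vehicle cells in most libraries. MGST2, which can make leukotriene C, was at 28.0, 22.5 and 24.7 CPM in vehicle cells, at 23.0, 19.3 and 23.4 CPM at the low dose, at 18.9, 21.2 and 21.3 CPM at the medium dose and at 17.9, 35.9 and 19.3 CPM at the high dose. MGST3, a microsomal enzyme with peroxidase activity, was at 30.2, 25.04 and 24.8 CPM in vehicle cells, at 22.9, 19.5 and 22.6 CPM at the low dose, at 20.3, 21.9 and 22.5 CPM at the medium dose and at 17.4, 31.5 and 22.9 CPM at the high dose. In both genes replicate 2 was the only high-dose library that did not lie below the vehicle group. The log2 fold changes at the high dose were −0.06 (95% interval −0.52 to 0.40) for MGST2 and −0.17 (95% interval −0.53 to 0.20) for MGST3. MGST2 overlaps MAML3, transcribed from the opposite strand. It is also the one transferase with expected counts that were not whole numbers (413.02 and 744.12 among them), so some of its reads were shared by estimate. With which gene they were shared was not tested.

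**Figure D2:**
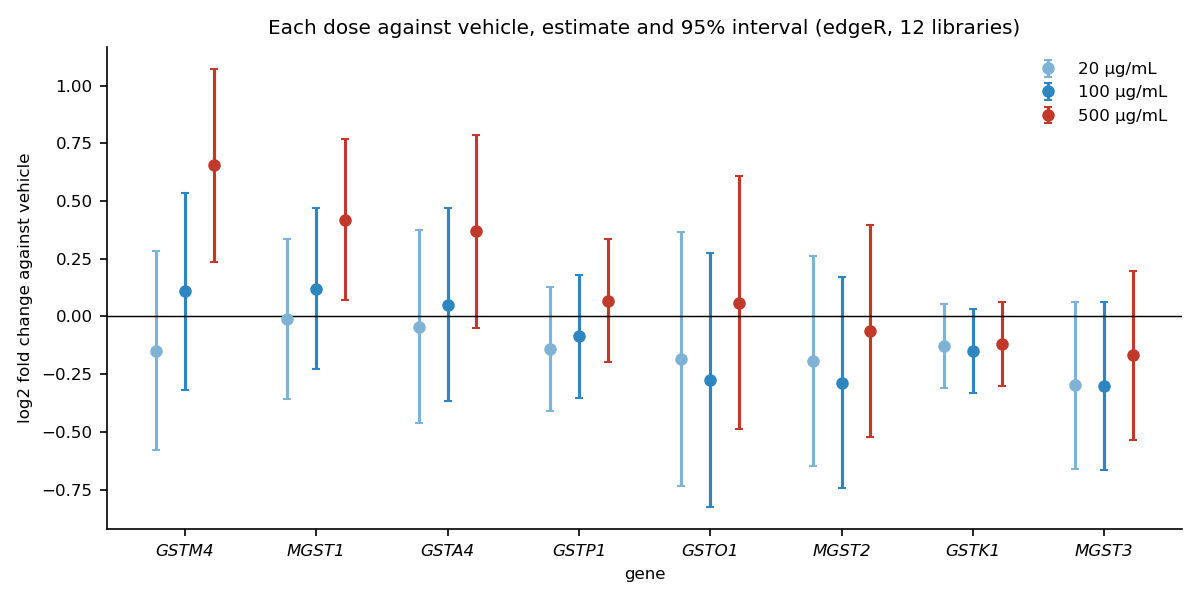
Log2 fold change against vehicle (y axis) of the 8 tested glutathione S-transferases (x axis) at 20, 100 and 500 µg/mL; points are edgeR estimates from the fit of 12 libraries and bars their 95% intervals. GSTM4 and MGST1 are the genes whose interval at 500 µg/mL lies above 0, at 0.65 and 0.42.

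With 100 and 20 µg/mL of extract none of the 8 transferases changed either. In these comparisons 1.01% and 0.124% of all genes tested were called, and no transferase had an unadjusted p under 0.05 with edgeR or with DESeq2. At the medium dose the 8 had a median log2 fold change of −0.12, against −0.0095 over all genes, and at the low dose of −0.14, against −0.0014. At the medium dose the 3 libraries of GSTK1, GSTO1, MGST2 and MGST3 lay below all vehicle libraries, which 14.1% of all genes showed; at the low dose this held for GSTK1 and MGST3, against 9.59% of all genes. The comparisons of the 3 doses share the vehicle libraries, and vehicle replicate 1 lay above the other 2 vehicle libraries in 7 of the 8 transferases, against 41.5% of all genes. A slope over the ordered doses, which uses the same libraries, called 0 of the 8, where 5.74% of all genes were called; 2 had an unadjusted p under 0.05, with edgeR and with DESeq2.

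High-dose replicate 2 was high across the family. In all 8 tested transferases this library lay above both other high-dose libraries, as it did in 45.2% of all genes tested, and in 7 of the 8 (all but GSTK1) it was the highest of the 12, against 30.7% of all genes. On the log2 scale it exceeded the mean of the other 2 high-dose libraries by 1.17 for GSTO1, 0.95 for MGST2, 0.76 for GSTA4, 0.71 for MGST1, 0.66 for MGST3, 0.45 for GSTM4, 0.39 for GSTP1 and 0.23 for GSTK1. The summed CPM of the 10 genes was 1374 in this library and 938 and 977 in the other 2.

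The length of the mRNA moved with this difference. The reference mRNAs of the 8 tested transferases were 740 to 1394 bases long, all within the shortest of 5 length bins that held about equal numbers of the 15196 tested genes with a known length, whose median over all bins was 2978 bases. From the shortest to the longest bin the median log2 difference of high-dose replicate 2 from the other high-dose libraries was 0.39, 0.18, 0.02, −0.12 and −0.35. Vehicle replicate 1 had a like order, from 0.22 in the shortest to −0.16 in the longest bin. Of the transferases, 7 of 8 exceeded the median of their bin in high-dose replicate 2, GSTK1 being the exception. The part of mRNA length in the values of the transferases was not tested beyond the fits that follow.

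**Figure D3:**
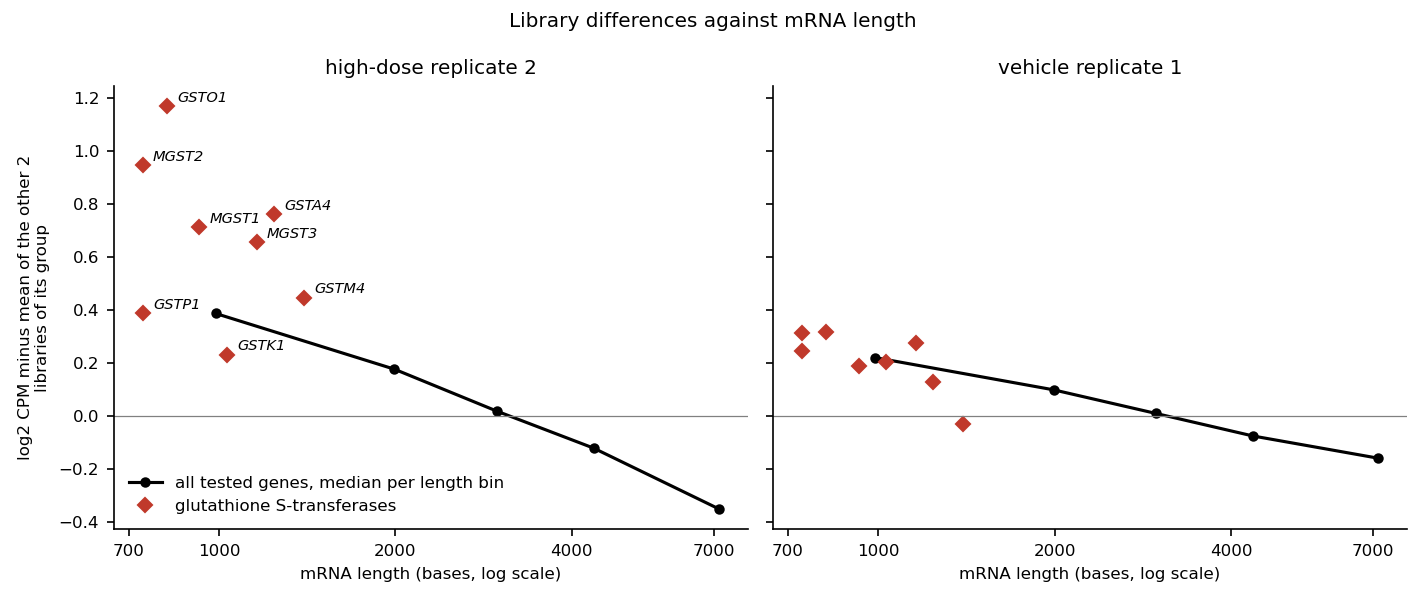
Log2 CPM of high-dose replicate 2 (left) and vehicle replicate 1 (right) minus the mean of the other 2 libraries of the same group (y axis) against mRNA length (x axis, log scale); black points are medians over all tested genes in 5 bins of length, and red diamonds are the 8 tested transferases. In high-dose replicate 2 the medians run from 0.39 to −0.35 and the transferases from 0.23 (GSTK1) to 1.17 (GSTO1).

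When the test was repeated without high-dose replicate 2, 4 of the 8 transferases fell at the high dose and none rose; of all genes tested 18.7% were called in this fit and 8.89% fell. GSTO1 fell by 0.43 on the log2 scale (SE 0.10, adjusted p = 0.0119), MGST2 by 0.42 (SE 0.10, adjusted p = 0.00864), MGST3 by 0.38 (SE 0.11, adjusted p = 0.0289) and GSTK1 by 0.20 (SE 0.07, adjusted p = 0.0413). In each of these 4 genes both remaining high-dose libraries lay below all vehicle libraries. The genes were picked by their calls in this same fit, and the share of all genes with this pattern was not counted. GSTM4 had a log2 fold change of 0.52 (adjusted p = 0.0938) and MGST1 of 0.14 (adjusted p = 0.161), and GSTA4 and GSTP1 were at 0.12 and −0.072. Over all genes of the shortest bin the median log2 fold change was −0.17 in this fit and 13.4% fell, against −0.04 and 2.3% with all 12 libraries. DESeq2 without this library also called 4 transferases, and 17.5% of all genes.

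A fit of all 12 libraries with an offset for mRNA length, chosen after seeing the data, gave a different set. Here 2 of the 8 transferases rose and none fell, where 8.31% of all genes were called and 4.16% rose. MGST1 rose by 0.44 on the log2 scale (adjusted p = 0.00466) and GSTM4 by 0.66 (adjusted p = 0.0431). With the offset and without high-dose replicate 2 there were 3 calls among the 8, and 21.3% of all genes were called: MGST1 rose by 0.32 (adjusted p = 4.05e-05), GSTP1 rose by 0.15 (adjusted p = 0.0481) and GSTO1 fell by 0.22 (adjusted p = 0.00916). Across these fits GSTM4, MGST1 and GSTA4 had log2 fold changes above 0 and MGST2, MGST3 and GSTK1 below 0, whereas GSTP1 and GSTO1 changed sign.

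**Figure D4:**
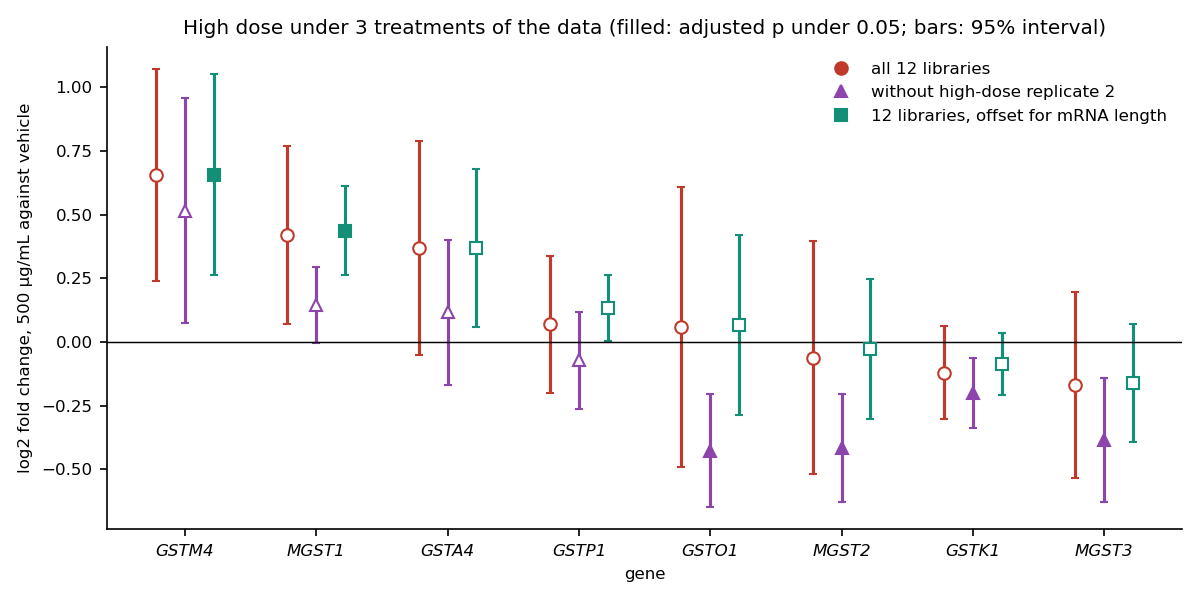
Log2 fold change at 500 µg/mL against vehicle (y axis) of the 8 tested transferases (x axis) with all 12 libraries, without high-dose replicate 2 and with an offset for mRNA length; bars are 95% intervals and filled symbols have an adjusted p under 0.05. No symbol is filled with all 12 libraries, 4 are filled below 0 without high-dose replicate 2, and 2 are filled above 0 with the offset.

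Other genes of glutathione metabolism and of the NRF2 and AhR pathways were examined at the same dose. The differences between their lists and the transferases were not tested. Mitochondrial transcripts took 14.0% to 16.6% of the counts in the high-dose libraries and 8.74% to 10.1% in the vehicle libraries. MT-RNR1 alone took 2.73% to 2.89% against 0.127% to 0.138%. With mitochondrial genes left out of the library totals 0 of the 8 transferases were called. The scaling of the fit makes up for such a change in totals, so this result could hardly differ and does not test the shift. The part of this shift in the transferases and in the other lists was not tested. Of 14 genes of glutathione metabolism (cystine uptake, synthesis, recycling, NADPH supply and, with CHAC1, CHAC2 and GGCT, breakdown), 13 were tested, 10 rose and none fell at the high dose, with a median log2 fold change of 0.75; of all genes tested 2.82% rose. GCLC, the catalytic subunit of the first enzyme of glutathione synthesis, rose by 0.77 (SE 0.06, adjusted p = 2.31e-05), from 74.1 ± 2.72 to 126 ± 5.95 CPM (SD, n = 3). SLC7A11, the cystine transporter, rose by 1.20 (SE 0.10, adjusted p = 2.93e-05), from 139 ± 7.97 to 319 ± 44.1 CPM. CHAC1, which breaks glutathione down, rose by 2.97 (SE 0.13, adjusted p = 1.03e-07), from 2.59 ± 0.472 to 20.0 ± 2.27 CPM. GCLM, whose promoter is printed above, rose by 0.75 (SE 0.09, adjusted p = 0.000335). Of the same list 10 rose without high-dose replicate 2.

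Of 20 listed NRF2 targets outside the family, all tested, 15 rose and none fell at the high dose, with a median log2 fold change of 0.51. AKR1B10, an aldo-keto reductase, rose by 1.13 (adjusted p = 3.08e-05), ME1, the malic enzyme, by 0.73 (adjusted p = 4.35e-05) and TXNRD1, a thioredoxin reductase, by 0.72 (adjusted p = 7.72e-05). Of 9 genes of the AhR battery, 7 were tested and 6 rose, with a median of 1.51. ALDH3A1, an aldehyde dehydrogenase, went from 21.7 ± 1.11 to 76.5 ± 4.23 CPM, CYP1B1 from 47.7 ± 3.90 to 335 ± 31.5 CPM and CYP1A1, the textbook target of the receptor, from 0.285 ± 0.153 to 98.3 ± 5.51 CPM (SD, n = 3). Without high-dose replicate 2, 16 NRF2 targets and 6 genes of the AhR battery rose. NQO1 is in both lists.

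The next steps after conjugation were covered by another list. Of 22 genes that export glutathione conjugates or process them to mercapturates, 17 were tested and 2 rose, with a median log2 fold change of 0.06. These were the conjugate pumps ABCC2 (1.17, SE 0.27, adjusted p = 0.0252) and ABCC3 (0.50, SE 0.12, adjusted p = 0.0337). Without high-dose replicate 2, 3 rose (ABCC1 with them) and 1 fell (DPEP1), and the median was −0.014. Of 18 other genes of the glutathione transferase superfamily 17 were found and 6 tested (GSTT2B, GSTZ1, GSTO2, GSTCD, PTGES and PTGES2), and none changed, with a median of 0.01. Without high-dose replicate 2, 1 of them fell, GSTO2, and the median was −0.11; GSTO2, ABCC1 and DPEP1 are named after their values were seen. The 11 others, among them the alpha class genes GSTA1, GSTA2 and GSTA3, had at most 11 counts in any library. The counts for these lists with all 12 libraries are set beside the 5.77% of all genes called. Those without high-dose replicate 2 are set beside the 18.7% called and the 8.89% that fell in that fit. The lists were chosen with results of these data known.

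**Figure D5:**
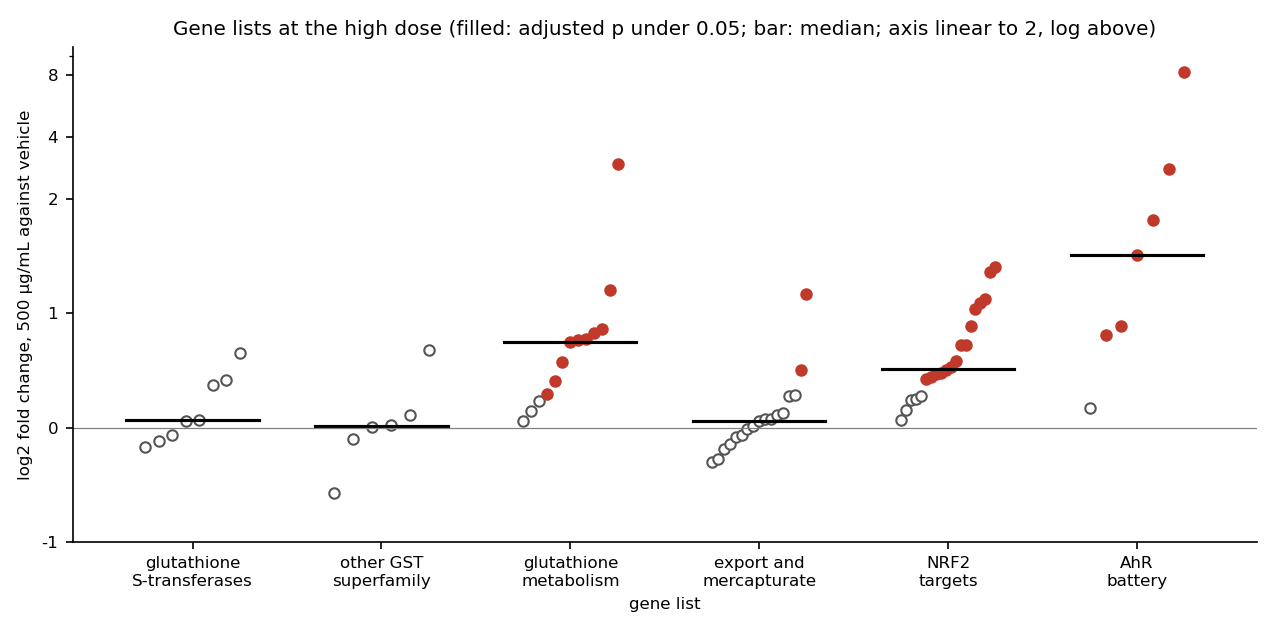
Log2 fold change at 500 µg/mL against vehicle (y axis, linear to 2 and logarithmic above) of the tested genes of 6 lists (x axis), 1 point per gene, filled where the adjusted p was under 0.05, with a bar at the median. The medians are 0.06 for the transferases, 0.75 for glutathione metabolism, 0.51 for NRF2 targets and 1.51 for the AhR battery.

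The genes whose log2 CPM over the 12 libraries was most like that of GSTM4, among 10622 genes with a mean of at least 5 CPM, were CYP27B1 (Pearson r = 0.928), HMOX1 (0.917), DESI1 (0.911), THAP9-AS1 (0.908) and PTGR1 (0.905). These are descriptions over libraries that share their groups and their length pattern, and all 5 genes, like GSTM4, were highest in high-dose replicate 2. HMOX1, the heme oxygenase of the NRF2 list, was at 9.09 CPM in vehicle cells and 19.4 CPM at the high dose, and PTGR1, an enzyme that reduces lipid aldehydes and prostaglandins, at 66.2 and 84.7 CPM. Both were called at the high dose, with adjusted p of 9.38e-05 and 0.0383. The other 3 were not, with adjusted p between 0.0538 and 0.188.

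The genes lie apart on the genome, other than the mu class cluster (GRCh38, GENCODE release 44). GSTM4 (ENSG00000168765), at chr1:109656099-109665496, GSTM2 (ENSG00000213366), at chr1:109668022-109709551, and GSTM3 (ENSG00000134202), at chr1:109733932-109741038, lie in this cluster, and only the first was above the filter. GSTM2 overlaps GSTM1 on the same strand, and GSTM3 overlaps GSTM5 on the opposite strand. GSTP1 (ENSG00000084207) is at chr11:67583742-67586656, GSTO1 (ENSG00000148834) at chr10:104235356-104267459, GSTK1 (ENSG00000197448) at chr7:143244093-143270854 and GSTA4 (ENSG00000170899) at chr6:52977948-52995304. MGST1 (ENSG00000008394) is at chr12:16347142-16609259, MGST2 (ENSG00000085871) at chr4:139665768-139740745 and MGST3 (ENSG00000143198) at chr1:165631213-165661796. Within the mu cluster, then, these 3 genes ranged from 1.40 CPM to no count in vehicle cells.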

How the data were processed

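RNA of 12 HT29 libraries was sequenced by the authors with a directional kit that marks strand. Per the labels and the study's methods they trimmed reads (Trim Galore), aligned them to GRCh38 (STAR) and estimated expected counts per gene (RSEM, GRCh38.84 annotation). The authors deposited these expected counts without normalization. RSEM's strand setting is not given in the sources used here.

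Counts were rounded to whole numbers and tested with edgeR 4.0.16 in R 4.3.3: filterByExpr, TMM scaling, a quasi-likelihood fit of the 4 groups with robust dispersion, and Benjamini-Hochberg adjustment over all 15374 genes tested. CPM used TMM-scaled totals, and log2 CPM a prior count of 2. Levels per kilobase used MANE Select mRNA lengths. Alternatives were DESeq2 1.42.0, other scalings and filters, single libraries left out, a replicate block and, chosen after seeing the data, a length offset (lowess, span 0.3) and DESeq2 without high-dose replicate 2. Scripts were tested on simulated data. The tests rest on the spread between 3 libraries per group, which includes counting error; GSTM2, GSTM3 and GSTM4 rest on few counts and GSTA4 on 93 to 185 per library.

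The members and lists were chosen with earlier results of these data known. Named genes were the 10 members, up to 3 called genes of each other list ranked by p against vehicle at 500 µg/mL, the 5 genes most like the member with the smallest p, and genes overlapping a member or sharing its sequence.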

Additional observations from a re-analysis of the deposited data

Results flagged for a closer look

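GSTM4 was called between the high and the low dose in the fit of all 12 libraries, where 2.98% of all genes tested were called. The high-dose libraries were at 1.89, 2.76 and 2.12 CPM and the low-dose libraries at 1.37, 1.34 and 1.07 CPM, a log2 difference of 0.80 (edgeR, adjusted p = 0.0446). The difference between the 2 doses was itself tested in that fit. It rests on 24 to 69 counts per library. The call was lost under 17 of 24 alternatives, among them leaving out any vehicle, medium-dose or low-dose library. High-dose replicate 2 was the highest of the 12 libraries for this gene, and without it the difference was 0.66 with an adjusted p of 0.0650. Its part in the result was not tested further.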

How the results depend on the processing

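The number of transferases called at the low dose was 0 under all 24 alternatives. At the high dose it was 0 in 19 of 24; library totals without TMM gave 1 (GSTK1, −0.26), the length offset 2, the offset without high-dose replicate 2 gave 3, DESeq2 without that library 4, and leaving out single libraries 0 to 4, above 0 without high-dose replicate 2 alone. The dose trend gave 1, 2, 3 and 4 under the same alternatives and 0 to 4 with single libraries left out. Over all genes those trend fits called 213 up and 1060 down of 15374, then 659 and 635 of 15374. The last of them called 1503 and 1380 of 15674, and 1662 and 1321 of 14643. Without high-dose replicate 2 the trend called 1390 up and 1354 down of 15674. At the high dose library totals called 240 genes up and 1308 down of 15374. At the medium dose the offset without high-dose replicate 2 gave 1 (MGST1) and DESeq2 without it 1 (GSTO1). Over all genes these fits called 829 up and 729 down of 15674, and 685 and 456 of 13499. Single libraries left out gave 0 to 0 transferases. Between the high and the low dose 1 transferase was called. The number was 0 with only the 2 groups compared, with library totals without TMM, or with no filter. It was also 0 with DESeq2 without high-dose replicate 2. The offset without that library gave 2 (MGST1 and GSTO1), where 927 genes were called up and 760 down of 15674. Single libraries left out gave 0 to 1.

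The sign of the high-dose fold change turned for 4 transferases. GSTP1 was at −0.075 with library totals and −0.066 with DESeq2 without high-dose replicate 2, and between −0.072 and 0.18 with single libraries left out. GSTO1 was at −0.094 with library totals, −0.22 with the offset without high-dose replicate 2, −0.42 with DESeq2 without it, and between −0.43 and 0.28 with single libraries left out. For MGST2 and MGST3 the values with single libraries left out ran from −0.42 to 0.12 and from −0.38 to 0.015. Library totals moved the median of all genes to −0.13. In other cases the cause was not tested.

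Whether the replicate numbers pair the libraries was not settled. Of 18 same-numbered pairs, 5 correlated over 0.1 (range −0.495 to 0.371). These are correlations of deviations from group means of 3 libraries, which must sum to 0 within a group. They also share the length pattern: vehicle replicate 1 and high-dose replicate 2, which differ in number, were at 0.541. The check therefore cannot exclude a pairing. A fit with the replicate number as a block called 0 transferases at the high dose and 0 between the high and the low dose, where GSTM4 had an adjusted p of 0.0900.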
